A study of Mus musculus with 44 samples.

Results

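The thrombospondins of the mouse, Thbs1, Thbs2, Thbs3, Thbs4 and Comp, were followed through the skeletal stem cell hierarchy. The members were the rows of the count table that carry one of these gene symbols, and all 5 were found among its 46959 entries. SLIM-seq, in which RNA of few cells is captured with an antibody against N6-methyladenosine (m6A) and sequenced beside the uncaptured RNA, had been applied to 8 populations sorted from the long bones of C57Bl6 mice at postnatal day 3. The IP library holds the captured RNA and the input library the RNA before capture, so the input gives the mRNA level and the ratio of IP to input the relative m6A signal. SSC (skeletal stem cells), pBCSP (labelled pre-BCSP) and BCSP form the stem and progenitor side, and PCP, THY, BLSP, 6C3 and HEC lie downstream. Each population had 2 IP and 2 input libraries from wild-type (WT) mice, which by the study's methods carry the floxed allele as Mettl3 fl/fl without Cre. SSC, pBCSP and BCSP had in addition 2 IP and 2 input libraries labelled Mettl3cko, from Mettl3 fl/fl;Col2a1-Cre mice, in which Cre is driven by the promoter of the type II collagen gene. Deletion was thus directed to cells with a history of Col2a1 activity. All cells had been sorted as negative for CD45, Ter119 and Tie2, none had received a treatment, and the number of animals behind a library is not given in the sources used here. The study describes its replicates as independent biological experiments. For all 44 libraries the labels' genotype entry says wild type, so the Mettl3cko groups rest on titles and library names.

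Thrombospondins are secreted, calcium-binding glycoproteins of the extracellular matrix. Thbs1 and Thbs2 form trimers, carry the type 1 repeats that bind CD36 and are known as inhibitors of blood vessel growth, and Thbs1 can activate latent TGF-beta. Thbs3, Thbs4 and Comp form pentamers without these repeats. Comp (cartilage oligomeric matrix protein) binds collagens II and IX in cartilage, Thbs4 is abundant in tendon and muscle attachments, and Thbs3 is made in growing cartilage and bone. Mettl3 is the catalytic subunit of the enzyme that writes m6A on mRNA, mostly at the DRACH motif and most densely near stop codons and in 3' ends.

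The libraries held 19795666 to 44046651 counts (WT input), 16480027 to 35856651 (WT IP), 30050178 to 35325482 (Mettl3cko input) and 22056571 to 33126857 (Mettl3cko IP). Between the 2 replicates of a group, log2 CPM (TMM-scaled CPM, the share of a library's counts) correlated at 0.957 to 0.986 for WT input, 0.928 to 0.953 for Mettl3cko input and 0.873 to 0.947 for WT IP, but only at 0.567 to 0.681 for Mettl3cko IP. Mettl3 itself gave 12.3 to 19.9 CPM in the 6 WT and 16.5 to 23.2 CPM in the 6 Mettl3cko input libraries of SSC, pBCSP and BCSP. The mean log2 difference was 0.25 ± 0.15 (SE; edgeR's quasi-likelihood test, adjusted p = 0.362). Counts over a whole gene need not show the loss of single exons, so this value does not check the labels. Lists of cell type markers were read in the sorted cells, which does not check the surface markers of the sort. Chondrocyte markers (Sox9, Col2a1, Acan, Col9a1, Matn1) summed to 85560 to 102300 CPM in the stem and progenitor libraries and to 7002 to 95210 CPM downstream, and leukocyte markers to 6.31 to 12.5 against 2.93 to 10.7 CPM. Other lists differed between the sides. Erythroid markers summed to 0.512 to 3.88 CPM on the stem and progenitor side and 10.7 to 87.3 CPM downstream (4 of 4 called). Megakaryocyte and platelet markers summed to 2.87 to 6.67 against 8.58 to 12.9 CPM without overlap (1 of 4 called higher and 1 lower on the stem and progenitor side), with the platelet genes Pf4 and Ppbp at 0 in 9 and 10 of the 16 libraries. Endothelial markers lay between 0.801 and 19.1 CPM in all populations but PCP, where they reached 71.5 and 68 CPM. The part of these lists in the members' levels was not tested. In bulk RNA of sorted cells, fewer cells of a kind and less RNA per cell cannot be told apart.

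All 5 members were well expressed, at the 97.2nd (Thbs4) to 99.8th (Comp) percentile of the 13782 genes with a mean over 1 CPM in WT input. Together they took 0.447% to 0.607% of the counts of a WT input library, and their mix changed along the hierarchy. On the scale of CPM per kb of exon, which allows genes of different length to be compared, Comp made up 70.8% to 85.5% of the summed level of the 5 genes in the stem and progenitor libraries, 59.3% to 63.9% in 6C3 and HEC and 22.4% to 30.8% in PCP, THY and BLSP. Thbs2 moved the other way, from 2.28% to 6.86% on the stem and progenitor side to 15.2% to 21.8% in 6C3 and HEC and 30.2% to 47.1% in PCP, THY and BLSP. Thbs4 reached 31.7% and 29.3% in the 2 THY libraries, against at most 3.04% on the stem and progenitor side. Thbs3 lay between 4.93% and 12.5% throughout, and Thbs1 between 1.54% and 9.76%.

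**Figure D1:**
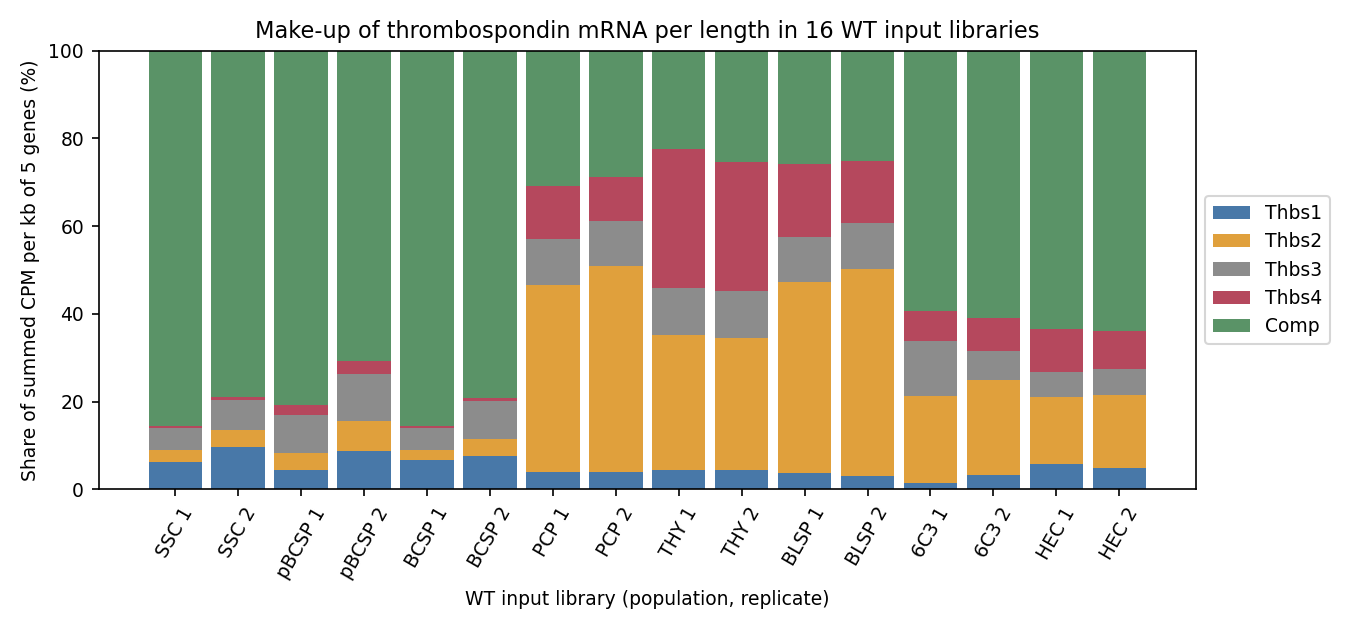
Each bar is 1 of the 16 WT input libraries and shows, in percent, how the summed level of the 5 genes (CPM per kb of exon) divides among Thbs1, Thbs2, Thbs3, Thbs4 and Comp. Comp fills 70.8% to 85.5% of the bar in SSC, pBCSP and BCSP, and at most 30.8% in PCP, THY and BLSP, where Thbs2 and Thbs4 take its place.

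Across the 8 WT populations, 4 of the 5 members differed in mRNA (edgeR's quasi-likelihood test over 7 degrees of freedom, adjusted p under 0.05), in a background where 40.1% of the 20060 genes tested did. Thbs1 (adjusted p = 0.00043), Thbs2 (1.4e-07), Thbs4 (3.08e-09) and Comp (7.38e-07) passed and Thbs3 (0.179) did not. Between the mean of SSC, pBCSP and BCSP and the mean of the 5 downstream populations, Thbs1 and Comp were higher on the stem and progenitor side and Thbs2 and Thbs4 lower, with backgrounds of 23.1% of genes called higher and 28.3% called lower. Over the 28 pairs of populations, 65 of 140 tests of a member passed, against 15.1% of all such tests.

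Thbs1 (ENSMUSG00000040152.8, chr2:118111876-118127133, plus strand, GRCm38, 6073 exonic bases) was highest in SSC. In the input libraries it measured 683 and 833 CPM in SSC, 440 and 677 CPM in pBCSP, and 682 and 663 in BCSP. Downstream it measured 260 and 227 CPM in PCP, 301 and 267 in THY, 179 and 183 in BLSP, 110 and 304 in 6C3, and 507 and 453 in HEC. The stem and progenitor libraries thus lay above all PCP, THY, BLSP and 6C3 libraries, and only HEC overlapped them, through the lower pBCSP library. The log2 difference between the sides was 1.30 ± 0.17 (SE), adjusted p = 1.05e-05. The libraries of 6C3 stood apart from each other, with 3587 and 11230 counts. In the order SSC, BCSP, pBCSP, HEC, THY, PCP, 6C3, BLSP, no neighbouring pair passed its test (adjusted p from 0.261 to 0.938), and 12 of the 28 pairs did.

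Comp (ENSMUSG00000031849.9, chr8:70373558-70382066, plus strand, 2967 exonic bases) was the most abundant member on the scale of CPM per kb in SSC, pBCSP, BCSP, 6C3 and HEC. It measured 4616 and 3287 CPM in SSC, 3903 and 2706 CPM in pBCSP, and 4233 and 3335 in BCSP. It measured 1019 and 812.5 CPM in PCP, 739 and 764 in THY, 621 and 715 in BLSP, 2064 and 2789 in 6C3, and 2720 and 2869 in HEC. PCP, THY and BLSP lay far under the rest, and HEC and the higher 6C3 library lay above the lowest stem and progenitor library. SSC passed against 6C3 (log2 difference 0.67, adjusted p = 0.0456) but not against HEC (0.47, 0.168). The step from 6C3 to PCP passed (log2 difference 1.41, adjusted p = 0.00187), and the other neighbours in the order did not. Between the sides the log2 difference was 1.52 ± 0.12, adjusted p = 3.71e-08, and 16 of 28 pairs passed. The chondrocyte markers moved with Comp: 5 of 5 were higher on the stem and progenitor side, with a median log2 difference of 1.945 beside -0.11 over all genes. The hypertrophic chondrocyte markers Col10a1 and Ihh were higher as well, 2 of 2, at sums of 36.1 to 1186 CPM against 0.470 to 14.8 CPM. Col10a1 was not high in pBCSP, where its 0.497 to 2.75 CPM lay below its 9.67 to 12.8 CPM in PCP. The part of either list in the difference of Comp was not tested.

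Thbs2 (ENSMUSG00000023885.9, chr17:14665500-14694235, minus strand, 7003 exonic bases) and Thbs4 (ENSMUSG00000021702.7, chr13:92751590-92794818, minus strand, 3289 exonic bases) rose together on the downstream side. Since these members moved together and Thbs3 did not, the promoters of all 3 are shown, as RefSeq gives them for GRCm38.p6 from 250 bases before to 50 bases after the start site, 5' to 3' on the strand of the gene. The RefSeq promoter table matched 3 of the 5 members; Thbs1 and Comp had no entry. Capitals mark the motifs searched, on both strands. The first was TATAAA, the letters of the TATA box that places the start of transcription in many genes. The second was GGGCGG, the GC box known to bind Sp1. Also searched were CCAAT, known to bind NF-Y, and the E box CACGTG.
Thbs2 promoter, chr17:14694213-14694512, minus strand: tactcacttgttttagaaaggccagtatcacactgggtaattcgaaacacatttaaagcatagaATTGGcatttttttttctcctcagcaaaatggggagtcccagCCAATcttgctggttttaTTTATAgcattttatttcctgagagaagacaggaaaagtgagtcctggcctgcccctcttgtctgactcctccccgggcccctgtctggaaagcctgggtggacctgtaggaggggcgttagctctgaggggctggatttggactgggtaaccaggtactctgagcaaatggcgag
Thbs4 promoter, chr13:92794769-92795068, minus strand: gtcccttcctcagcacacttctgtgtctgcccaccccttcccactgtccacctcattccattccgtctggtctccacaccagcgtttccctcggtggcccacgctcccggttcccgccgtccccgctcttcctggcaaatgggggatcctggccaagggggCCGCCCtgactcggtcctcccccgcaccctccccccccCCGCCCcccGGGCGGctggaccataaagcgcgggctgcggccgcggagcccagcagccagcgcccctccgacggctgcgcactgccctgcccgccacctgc
Thbs3 promoter, chr3:89214930-89215229, plus strand: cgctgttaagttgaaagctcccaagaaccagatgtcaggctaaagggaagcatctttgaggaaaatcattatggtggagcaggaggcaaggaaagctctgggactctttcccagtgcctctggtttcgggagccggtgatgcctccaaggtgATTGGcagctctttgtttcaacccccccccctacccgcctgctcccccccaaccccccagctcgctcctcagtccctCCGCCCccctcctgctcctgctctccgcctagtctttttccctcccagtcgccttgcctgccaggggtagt
The promoters of Thbs2 and Thbs4 share none of these motifs. That of Thbs2 held TATAAA, at -126, and CCAAT, at -186 and -144 from the start site, and that of Thbs4 held 3 GC boxes, at -89, -51 and -42. The Thbs3 window held 1 GC box, at -21, and 1 CCAAT box, at -98, and none of the 3 held the E box. TATAAA occurs in 13.6%, GGGCGG in 35.7%, CCAAT in 37.4% and CACGTG in 7.15% of the 32851 promoters of the table. The windows also differ in CpG dinucleotides, with 4 for Thbs2, 24 for Thbs4 and 8 for Thbs3 beside a median of 7. A match of letters is a description and not a binding site.

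Thbs2 measured 359 and 380 CPM in SSC, 428 and 619 CPM in pBCSP, and 267 and 386 in BCSP. Downstream it measured 3336 and 3142 CPM in PCP, 2400 and 2139 in THY, 2480 and 3167 in BLSP, 1619 and 2352 in 6C3, and 1533 and 1745 in HEC. The sides did not overlap, the lowest downstream library standing at 1533 CPM and the highest stem and progenitor library at 619. The log2 difference of stem and progenitor minus downstream was -2.57 ± 0.14, adjusted p = 1.07e-09. Among neighbours in the order PCP, BLSP, THY, 6C3, HEC, pBCSP, SSC, BCSP, HEC and pBCSP alone differed (log2 difference 1.68, adjusted p = 0.000357), and 16 of 28 pairs passed.

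Thbs4 had the widest span of the 5, with a mean in THY 35.7-fold that in SSC. It measured 27.9 and 31.9 CPM in SSC, 29.6 and 34.4 in BCSP, and 123 and 129 in pBCSP. It measured 444 and 320.5 CPM in PCP, 1160 and 973 in THY, 442 and 449 in BLSP, 265 and 380 in 6C3, and 470 and 431 in HEC. Thbs4 was thus the only member that passed its test within the stem and progenitor side, with pBCSP above SSC (log2 difference of SSC minus pBCSP -2.06 ± 0.23, adjusted p = 0.000306) and above BCSP (1.95 ± 0.23, adjusted p = 0.000482). It was also set apart in THY, above HEC, the next in order, by 1.25 on the log2 scale (adjusted p = 0.00179). The log2 difference of stem and progenitor minus downstream was -3.32 ± 0.13, adjusted p = 3.81e-11, and 21 of 28 pairs passed. The tendon markers Scx, Tnmd and Mkx moved along with it, summing to 84.9 to 180.1 CPM on the stem and progenitor side and 401.5 to 2034 CPM downstream, with both THY libraries (2034 and 1459 CPM) at the top. Of the 3, Tnmd (log2 difference -3.38, adjusted p = 3.44e-10) and Scx (-4.10, 2.93e-07) passed and Mkx (-0.09, 0.622) did not. Smooth muscle and pericyte markers (Acta2, Myh11, Rgs5) also lay higher downstream, at 396.6 to 2569 CPM against 23.3 to 230.1 CPM, with 3 of 3 called. The part of either list in the level of Thbs4 or Thbs2 was not tested.

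Thbs3 (ENSMUSG00000028047.11, chr3:89215180-89226837, plus strand, 4823 exonic bases) was the even member. It measured 441 and 465 CPM in SSC, 693 and 662 CPM in pBCSP, and 397 and 587 in BCSP. It measured 566 and 472 CPM in PCP, 567 and 522 in THY, 406 and 479 in BLSP, 708 and 479 in 6C3, and 399 and 444 in HEC. The highest population mean was 1.61-fold the lowest, the replicates of every neighbouring pair overlapped, and the sides differed by 0.06 ± 0.11 on the log2 scale (adjusted p = 0.684). By edgeR, 0 of its 28 pairs passed. A p that misses the threshold does not show equal levels. Thbs3 shares 318 exonic bases with Mtx1 on the opposite strand, and Thbs1 shares 208 with the lincRNA Gm29233. Reads there cannot be told apart without strand. Mtx1 reached 18.3 to 49.5 CPM in the input libraries and Gm29233 none.

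**Figure D2:**
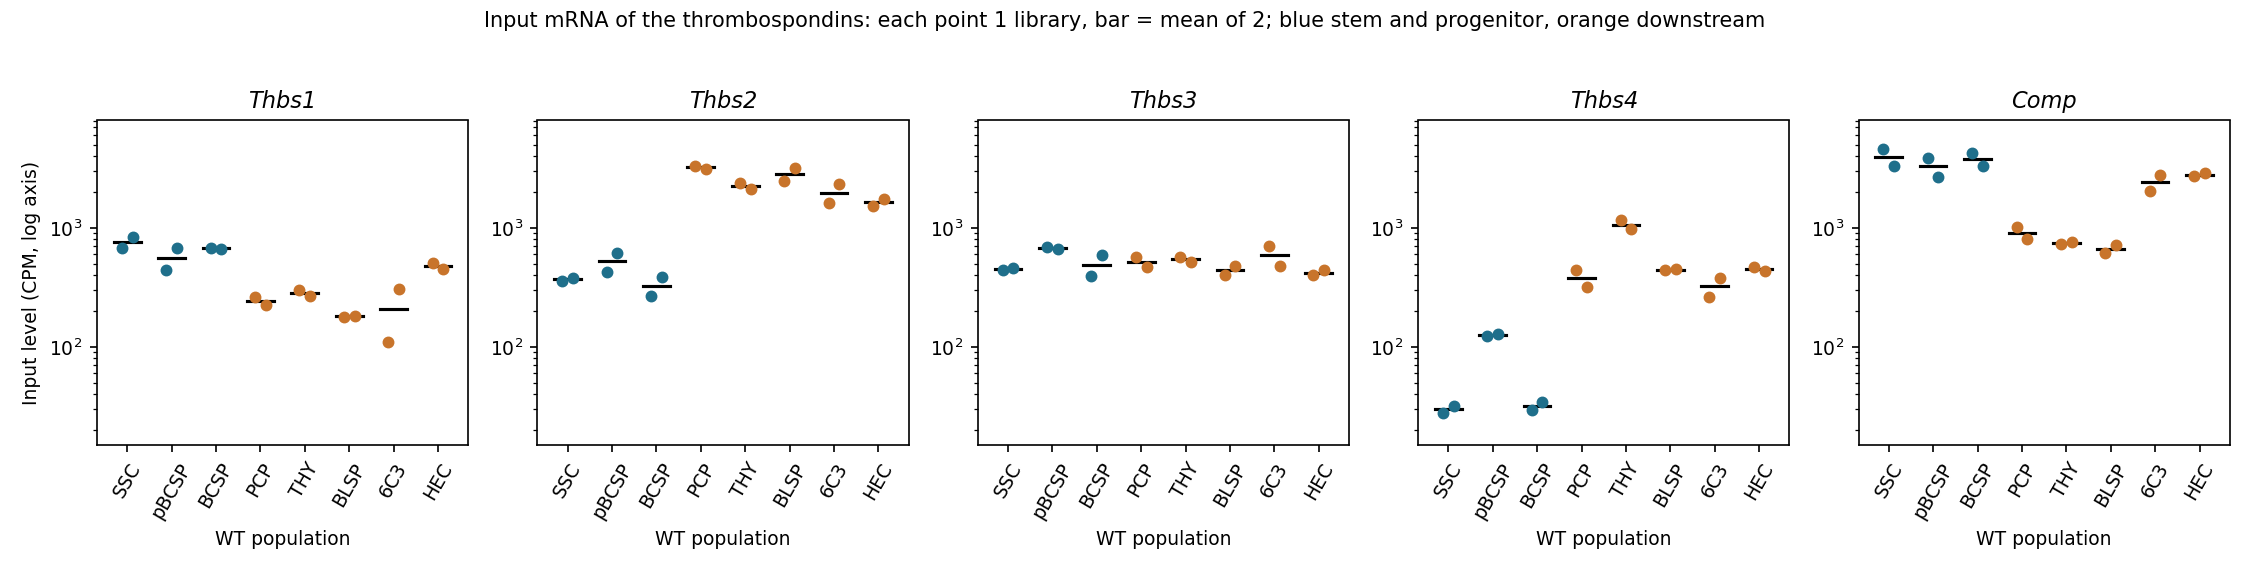
Input mRNA of each member (CPM, log axis) in the 8 WT populations, with 1 point per library and a bar at the mean of 2, stem and progenitor populations in blue and downstream ones in orange. Thbs1 and Comp are higher in blue, Thbs2 and Thbs4 higher in orange without overlap, and Thbs3 spans only 1.61-fold between population means.

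The same split was tested with the population as the unit, over the 56 ways to take 3 of 8 populations (exact permutation test, two-sided). The difference in mean log2 CPM was -2.55 for Thbs2 and -3.28 for Thbs4, both at an exact p = 0.0179, the smallest value this design allows. It was 1.35 for Thbs1 and 1.535 for Comp, both at an exact p = 0.0357, and 0.09 for Thbs3 at an exact p = 0.625. Adjusted over the 10 tests made, for mRNA and for the ratio of IP to input, the p of Thbs1, Thbs2, Thbs4 and Comp was 0.0893, so that none passed at the level of populations. With 0.0179 as the smallest possible p, no member could pass this adjustment on its own, however large its difference. The miss therefore does not decide whether the sides differ. Over the 8 population means of log2 CPM, which share their libraries and scaling, Thbs2 and Thbs4 ran together (Pearson's r = 0.914), as did Thbs1 and Comp (0.777), and Thbs2 ran against Thbs1 (-0.891) and Comp (-0.836). Thbs3 correlated with none of them beyond 0.109 in size.

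Genes that act with the thrombospondins were read in the same contrast of the sides. Over all genes, 23.1% were called higher and 28.3% lower in it. Of 15 receptors and receptor partners, 10 were lower and 1 higher on the stem and progenitor side, with a median log2 difference of -1.155 beside -0.11 over all genes. The 4 with the smallest p were the integrin subunits Itgb3 (-2.84, adjusted p = 2.52e-08), Itgb1 (-1.155, 6.91e-08) and Itga6 (-1.68, 3.13e-07) and the calcium channel subunit Cacna2d1 (-1.52, 2.6e-07). Named after their values were seen, the receptors Cd36 (-2.635, 1.15e-05) and Cd47 (-1.09, 4.58e-07) of Thbs1 were lower too, and the syndecan Sdc4 was the single higher one (1.20, 2.42e-06). Cd36 was high mainly in PCP (31.7 and 41.9 CPM), which also held the most endothelial markers, whose part was not tested. In 6C3 (1.77 and 1.95 CPM) and HEC (1.20 and 1.92 CPM) it lay within its stem and progenitor range of 0.137 to 2.62 CPM. All 9 proteases that cut thrombospondins or their matrix were lower, among them Mmp14 (-2.035, 1.57e-09), Adamts4 (-5.57, 4.19e-09), Adamts1 (-0.89, 1.06e-05) and Adamts5 (-1.24, 1.18e-05), the latter 3 being aggrecanases of the ADAMTS family.

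Matrix partners went both ways. Of 12 genes, 7 were higher and 3 lower (23.1% and 28.3% of all genes), with a median log2 difference of 1.64. The collagen IX chains that bind Comp were higher, Col9a2 by 3.54 (adjusted p = 1.85e-11), Col9a3 by 3.355 (6.06e-11) and Col9a1 by 2.435 (1.4e-10), while Col1a1, the main chain of bone and tendon collagen, was lower (-3.66, 1.08e-11), as were Col1a2 and Col12a1, both named after their values were seen. Col2a1, Acan, Col9a1 and Matn1 also stand among the chondrocyte markers. Unlike Col1a1, the osteoblast markers were higher on the stem and progenitor side, 5 of 5, with a median log2 difference of 0.78. Their sums overlapped, at 127.6 to 4195 CPM against 127.1 to 3133 CPM downstream, and their part was not tested. Of 11 genes of TGF-beta activation, 10 were tested, of which 6 were lower and 1, Ltbp3 (0.42, adjusted p = 0.0374), higher. The latent TGF-beta binding proteins Ltbp2 (-1.89, 5.49e-09), Ltbp4 (-2.17, 2.68e-06) and Ltbp1 (-1.30, 1.96e-05) and the receptor Tgfbr1 (-1.57, 0.000112) had the smallest p.

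The genes whose mean log2 CPM over the 8 populations followed a member most closely were read from 6962 genes that differed between populations (6963 for Thbs3). They were Ttyh3 (Pearson's r = 0.997), Bok (0.995) and Fgl2 (0.994) for Thbs2, and Sh3d19 (0.991), Zfp407 (0.99) and Kdm5c (0.99) for Thbs4. For Comp they were Ubtd1 (0.994), Trpv4 (0.99) and 3830403N18Rik (0.989), and for Thbs1 Uros (0.984), Oat (0.972) and Exosc3 (0.97). The even Thbs3 reached lower values, with Fam83d (0.926), Tcof1 (0.903) and Cdc20 (0.858). With 8 points that share libraries and scaling, these values are a description.

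The m6A signal was read from IP against input within each WT population. The end of the coding sequence, where m6A is commonly dense, is shown for all members, since their signals differ. Each line gives the last 150 coding bases of the longest coding transcript in GENCODE release M21 for the mouse, stop codon included, 5' to 3' on the strand of the gene. Capitals mark DRACH (any base but C, then A or G, then A, then C, then any base but G), including the variant GGACT. The stretches lie in the last 3 coding exons of Thbs1 and Thbs2 and in the last 2 of Thbs3, Thbs4 and Comp, at chr2:118124012-118125029, chr17:14667513-14669973, chr3:89226353-89226584, chr13:92751751-92752441 and chr8:70381709-70381932.
Thbs1: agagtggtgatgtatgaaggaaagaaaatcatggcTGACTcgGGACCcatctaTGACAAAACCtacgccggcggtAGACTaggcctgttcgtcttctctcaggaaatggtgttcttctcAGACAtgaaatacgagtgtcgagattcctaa
Thbs2: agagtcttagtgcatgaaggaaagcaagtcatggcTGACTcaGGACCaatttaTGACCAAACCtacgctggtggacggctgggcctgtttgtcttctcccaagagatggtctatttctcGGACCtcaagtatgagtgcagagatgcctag
Thbs3: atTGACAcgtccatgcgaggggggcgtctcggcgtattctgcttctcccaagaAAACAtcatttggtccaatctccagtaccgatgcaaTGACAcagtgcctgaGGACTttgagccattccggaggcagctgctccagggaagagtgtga
Thbs4: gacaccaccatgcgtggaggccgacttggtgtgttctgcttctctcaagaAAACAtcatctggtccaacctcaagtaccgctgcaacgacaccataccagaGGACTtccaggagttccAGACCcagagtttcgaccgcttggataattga
Comp: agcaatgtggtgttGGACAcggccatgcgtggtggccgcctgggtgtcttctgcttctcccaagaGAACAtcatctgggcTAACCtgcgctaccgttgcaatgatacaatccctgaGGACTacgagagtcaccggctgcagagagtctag
These ends held 6 (Thbs1), 5 (Thbs2), 4 (Thbs3), 3 (Thbs4) and 4 (Comp) DRACH motifs, and GGACT stood once in each of Thbs3, Thbs4 and Comp. Over the whole transcript, DRACH occurred 27 (Thbs1), 25.3 (Thbs2), 27.3 (Thbs3), 28.8 (Thbs4) and 24.4 (Comp) times per kb, each above the median of 20.3 per kb over 21901 genes. The 3' UTRs differ in length, with 2104 bases in Thbs1 and 2013 in Thbs2 but 253, 161 and 134 in Thbs3, Thbs4 and Comp. Thbs4 had the highest density of DRACH and Comp the lowest.

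Of 40 tests of a member in a population, 1 met the study's definition of an m6A-tagged mRNA (IP above input by more than 1 on the log2 scale at an unadjusted p under 0.05), and 24 met its mirror image, at a fold change below -1. Over all genes the tagged share was 6.67% in BCSP, 10.4% in SSC and 12% in pBCSP, and downstream 10.6% in PCP, 12.4% each in THY and BLSP, 14.5% in 6C3 and 13.5% in HEC. The share below input was 13.9% in SSC, 14.8% each in pBCSP and BLSP, 11.7% in BCSP, 14.5% in PCP, 15% in THY, 17% in 6C3 and 14.2% in HEC. In each of the 8 populations the 3 members below input were Thbs2, Thbs3 and Comp.

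Thbs1 was the member with the most IP signal. Its log2 ratios of IP to input CPM in the 2 replicates were 0.97 and 1.01 in SSC. They were 1.21 and 0.44 in pBCSP, while BCSP had 0.53 and 0.92. Downstream PCP had 0.30 and 0.05, THY -0.16 and 0.27, BLSP 0.35 and 0.52, 6C3 1.51 and 0.195 and HEC 0.10 and 0.10. The fitted log2 fold change was 1.02 ± 0.23 in SSC (edgeR's quasi-likelihood test, adjusted p = 0.0531), just past the limit of 1 and short of significance once adjusted. It was 0.79 in pBCSP (adjusted p = 0.0707), 0.69 in BCSP (adjusted p = 0.111) and 0.51 in BLSP (adjusted p = 0.0339), and from 0.17 to 0.73 in the other 4, above 0 in 8 of 8. The tagged call of Thbs1 in SSC rested on single libraries. It was 0.84 without WT SSC input replicate 1, 0.82 without WT SSC IP replicate 2 and 0.97 with no filter, none of which passes the limit of 1. Without WT 6C3 input replicate 2 Thbs1 passed in 6C3 as well (1.59), and without WT pBCSP input replicate 2 in pBCSP (1.12). The ratio of Thbs1 lay at the 49.8th to 88.3rd percentile of all genes in the 16 replicates.

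Thbs2 had the least signal, with fitted log2 fold changes between -2.24 (PCP) and -1.63 (SSC) and adjusted p of at most 0.0419. The mean ratio of IP to input was 0.316 ± 0.073 (SD, n = 2) in SSC and 0.203 ± 0.027 in PCP. Thbs3 lay between -2.055 (6C3) and -1.46 (BCSP), adjusted p at most 0.0457. Comp lay between -1.685 (SSC) and -1.11 (BCSP), adjusted p at most 0.0514. In the 16 replicates Thbs2 stood at the 2.2nd to 15.6th percentile of all genes, Thbs3 at the 4.3rd to 17.7th and Comp at the 8.8th to 20.4th. These 3 were below input in every replicate of every population. Comp in BCSP came to -0.97 without WT BCSP IP replicate 2 and -0.95 without WT BCSP input replicate 1, short of the limit.

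Thbs4 was near even, between -0.38 (pBCSP) and 0.36 (BCSP), with no population at an unadjusted p under 0.05 by edgeR (adjusted p from 0.187 to 0.821). Its 35.7-fold span in mRNA thus went with IP levels that followed the input, from 34.6 and 30.2 CPM of IP in SSC to 989 and 862 CPM in THY.

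**Figure D3:**
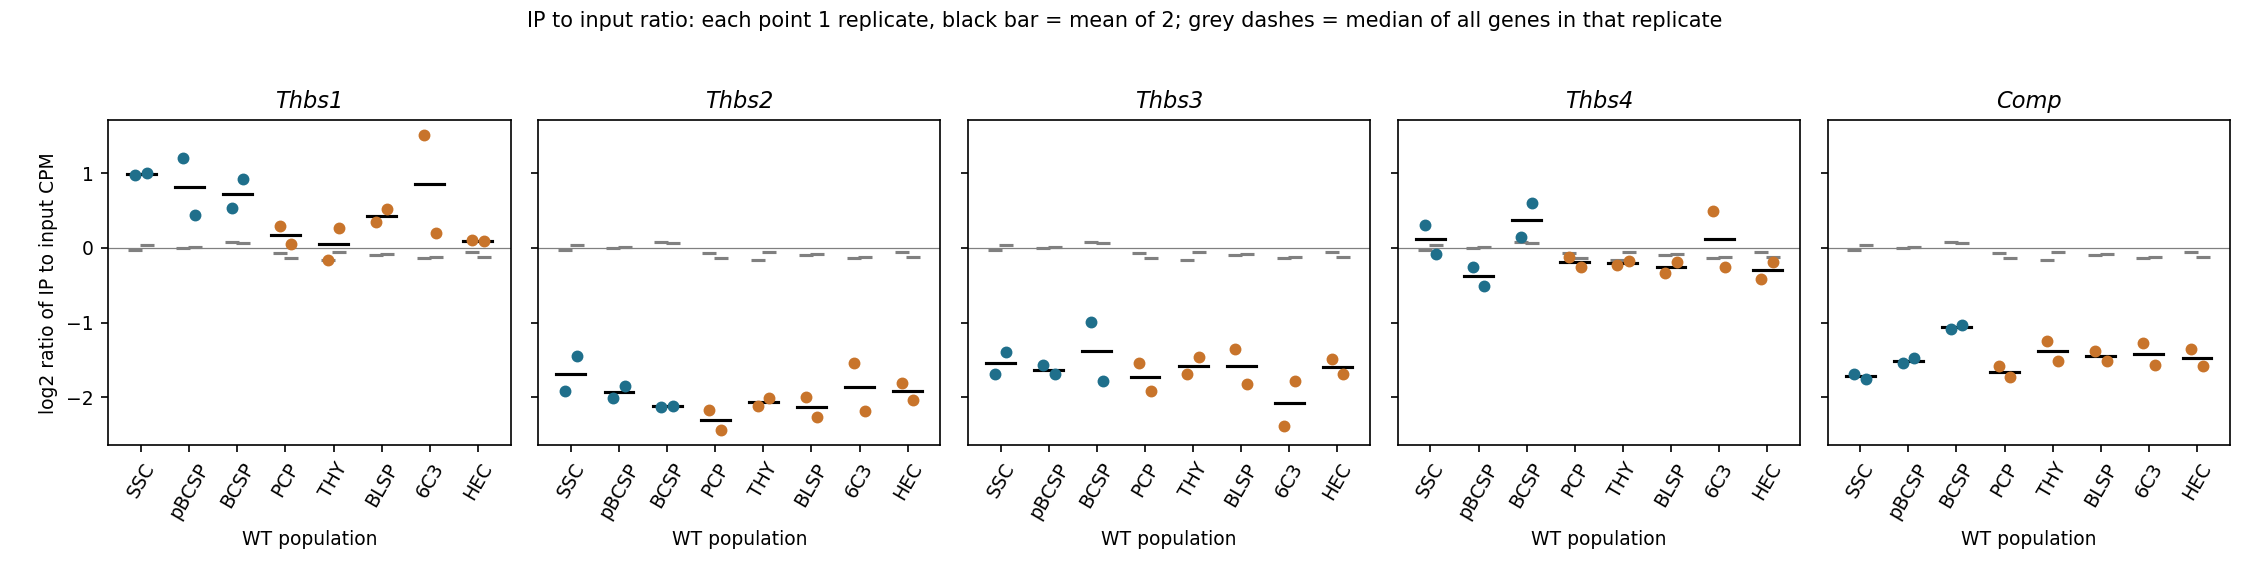
log2 ratio of IP to input CPM of each member in the 8 WT populations, with 1 point per replicate, a black bar at the mean of 2 and grey dashes at the median of all genes in that replicate. Thbs2, Thbs3 and Comp lie well under the grey dashes in all 8 populations, Thbs4 near them and Thbs1 at or above them.

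Whether the ratio differs between populations was tested in a single fit over the 32 WT libraries. By edgeR, 0 of 5 members passed over the 8 populations (adjusted p from 0.869 to 1, and 0 of 5 at an unadjusted p under 0.05), in a background of 0.485% of genes. In the contrast of the sides, 0 of 5 passed as well, with 3.06% of genes called higher and 1.77% lower on the stem and progenitor side. At an unadjusted p under 0.05, 1 member stood out, Thbs1, with a ratio higher by 0.585 ± 0.21 on the log2 scale on the stem and progenitor side (adjusted p = 0.12). The share of mitochondrial counts in the IP libraries split by the same sides, at 1.56% to 2.92% in the 6 stem and progenitor and 4.53% to 9.1% in the 10 downstream libraries, and its part in the difference was not tested. The study divided the sorted cells of a batch between IP and RNA-seq, but the labels do not say that equal numbers mark a batch. With IP and input of the same number taken as a replicate block, Thbs1 passed. The blocked difference between the sides was 0.56 ± 0.14 (adjusted p = 0.00533), with 4.47% of genes called higher, and over the 8 populations Thbs1 had an adjusted p = 0.0297, with 3.64% of genes called. Without the block it passed between the sides in 2 of 32 fits with a library left out. These were the fits without WT 6C3 input replicate 1 (0.57) and without WT pBCSP input replicate 2 (0.71). Over the 8 populations it passed in 1 of 32 such fits, without WT 6C3 input replicate 2. With DESeq2, other size factors or other filters, Thbs1 passed in neither test. With the population as the unit the difference of Thbs1 between the sides was 0.52 (exact permutation p = 0.0714). The other 4 differed by 0.08 to 0.25 (adjusted p from 0.611 to 1).

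In the comparison of Mettl3cko with WT, the mRNA of 2 of 15 member and population pairs changed by the study's limits (log2 fold change beyond 0.5 at an unadjusted p under 0.05), and both were Thbs4. Over all genes SSC had 6.96% higher and 7.07% lower, pBCSP 3.88% and 4.48%, and BCSP 7.22% and 5.72%. In SSC, Thbs4 measured 27.9 and 31.9 CPM in WT and 13.9 and 10.7 CPM in the libraries labelled Mettl3cko, a log2 fold change of -1.29 ± 0.27 (adjusted p = 0.161). In BCSP it measured 29.6 and 34.4 CPM in WT and 79.5 and 93.8 CPM in Mettl3cko, a log2 fold change of 1.425 ± 0.235 (adjusted p = 0.189). In pBCSP it measured 123 and 129 CPM in WT and 86.1 and 100 CPM in Mettl3cko (-0.415 ± 0.21, adjusted p = 0.655). The genotypes did not overlap for Thbs4 in any of the 3 populations, nor for the uncalled Thbs2 in BCSP and Comp and Thbs3 in pBCSP. The share of all genes with such a separation of 2 against 2 libraries was not counted, so it is a description. The sign of the Thbs4 change in BCSP was opposite to that in SSC. Neither change passed once adjusted over all genes, but by edgeR 0 genes of 16100, 16017 and 16322 did so in SSC, pBCSP and BCSP, with 2363, 1341 and 2123 at an unadjusted p under 0.05. By DESeq2, with adjustment, 4.11%, 1.03% and 3.56% of genes passed (661, 158 and 548), Thbs4 in SSC and Thbs4 in BCSP among them.

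The mean genotype difference over the 3 populations passed for 0 of 5 members by edgeR, against 6.48% of genes, and 0 of 5 had an unadjusted p under 0.05 (adjusted p from 0.312 to 0.93). The difference of the effect between populations (2 degrees of freedom) gave an adjusted p = 0.0941 for Thbs4 and adjusted p from 0.941 to 1 for the other 4. No gene passed that test by edgeR (0% of 18655, with 839 at an unadjusted p under 0.05), while DESeq2 called 41. Thbs4 passed with DESeq2 (adjusted p = 6.48e-13), with at least 10 counts required in every library (adjusted p = 0.0234) or no filter (adjusted p = 6.95e-08), and without Mettl3cko pBCSP input replicate 1 (adjusted p = 0.035) or 2 (adjusted p = 0.0235). The Thbs4 effect in BCSP exceeded that in SSC by 2.68 ± 0.31 on the log2 scale (adjusted p = 0.0287, a pair tested after its values were seen).

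The tendon markers were read beside Thbs4, and as a list they went with it in SSC only. In SSC their sum was 102.8 and 97.8 CPM in WT and 61.3 and 45.7 CPM in Mettl3cko, with 2 of 3 called lower, Scx (-2.44, adjusted p = 0.29) and Tnmd (-1.24, adjusted p = 0.18). In BCSP it was 92.8 and 84.9 CPM in WT and 158.1 and 110.3 CPM in Mettl3cko, with 1 of 3 called higher, Tnmd (0.89, adjusted p = 0.273). The median log2 fold change of the 3 markers in BCSP was -0.006, beside -1.24 in SSC. In pBCSP their sum was 180.1 and 133.9 CPM in WT and 170.9 and 167.4 CPM in Mettl3cko, with 0 of 3 called at an unadjusted p under 0.05 and a median of -0.07. Prg4, the marker of the articular surface, fell in all 3 populations at an unadjusted p under 0.05, by 1.90 (SSC), 2.49 (pBCSP) and 1.39 (BCSP) on the log2 scale (adjusted p of 0.145, 0.569 and 0.206). Smooth muscle and pericyte markers summed to 117.4 and 36.9 CPM in WT and 273.4 and 183.1 CPM in Mettl3cko BCSP, with 2 of 3 called higher, Rgs5 (1.79, adjusted p = 0.269) and Acta2 (1.29, adjusted p = 0.339). In SSC they summed to 89.6 and 23.3 CPM in WT and 68.5 and 83.8 CPM in Mettl3cko, with 1 of 3, Rgs5, called higher. Erythroid markers summed to 0.512 and 1.74 CPM in WT and 14.8 and 7.18 CPM in Mettl3cko BCSP (2 of 3 tested called higher). Skeletal muscle markers there summed to 3.33 and 3.44 CPM in WT and 7.795 and 12.5 CPM in Mettl3cko (1 of 2 tested called higher, Acta1), and of the platelet markers 1 of 3 tested was called higher, Itga2b. The part of these lists in the values of Thbs4 was not tested.

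The other 4 members gave no call. Thbs1 had log2 fold changes of -0.26 (SSC), -0.41 (pBCSP) and -0.18 (BCSP), with overlapping replicates and adjusted p from 0.626 to 0.83. Comp measured 3903 and 2706 CPM in WT and 1889 and 2623 CPM in Mettl3cko pBCSP (log2 fold change -0.53 ± 0.27, adjusted p = 0.656), without overlap, and its genotypes overlapped in SSC and BCSP. Comp in pBCSP met the limits with no filter (-0.53) and without Mettl3cko pBCSP input replicate 2 (-0.79). The chondrocyte markers stood beside it in pBCSP at 87110 and 92160 CPM in WT and 61630 and 53480 CPM in Mettl3cko, with 2 of 5 called lower, and their part was not tested. Thbs2 in BCSP measured 267 and 386 CPM in WT and 632 and 393 CPM in Mettl3cko (0.64 ± 0.30, adjusted p = 0.426), and in SSC its 2 Mettl3cko libraries, at 404 and 169 CPM, stood on either side of WT. Thbs2 in BCSP met the limits with DESeq2 (0.64), with at least 10 counts in every library (0.635), with no filter (0.65), and without replicate 2 of the WT (0.94) or Mettl3cko (0.95) input, and in SSC without Mettl3cko input replicate 1 (-1.11). Thbs3 had log2 fold changes from -0.22 to 0.055, and only in pBCSP did its genotypes not overlap.

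**Figure D4:**
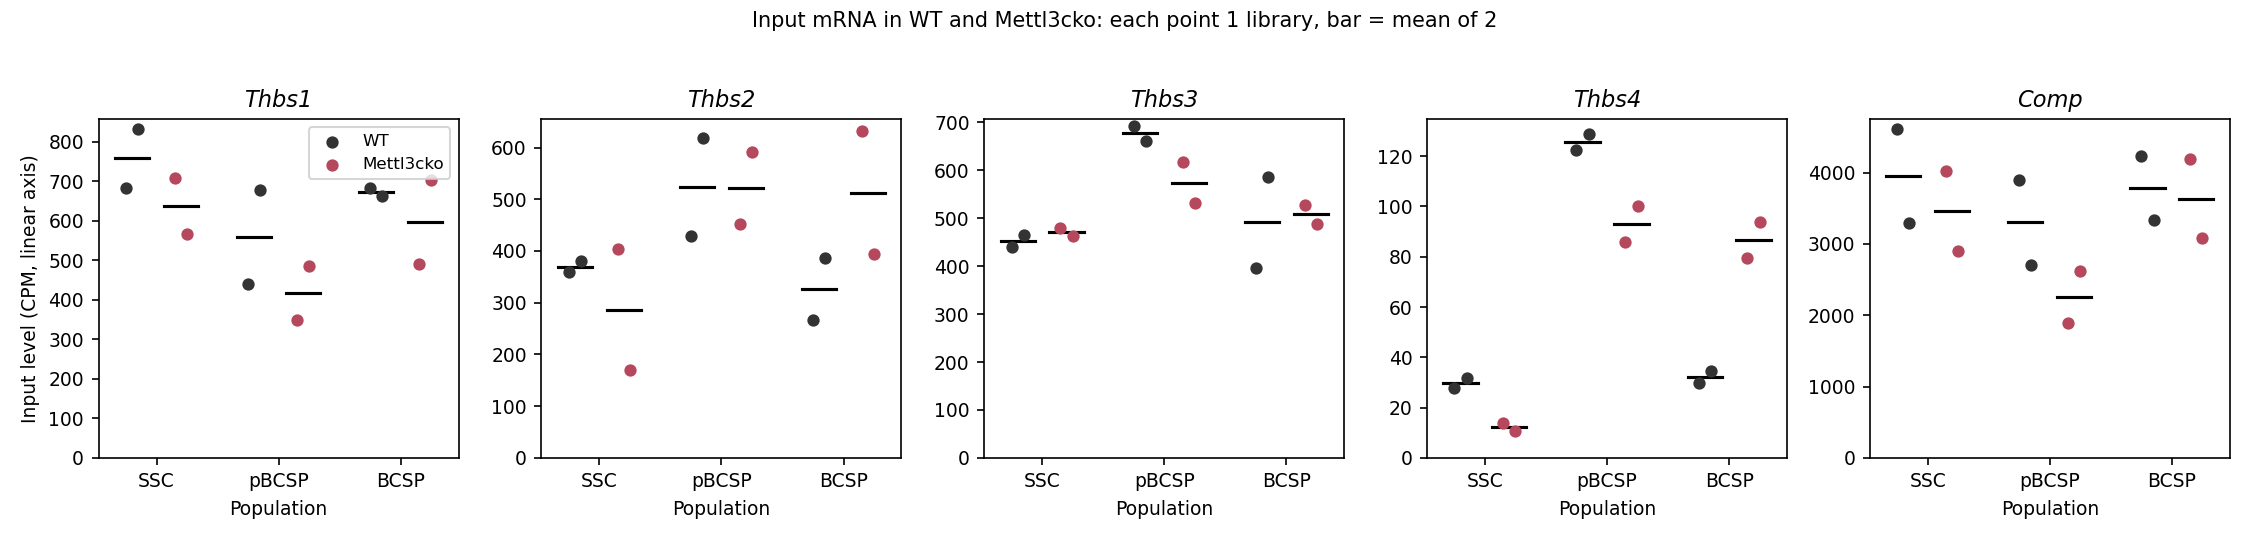
Input mRNA (CPM, linear axis from 0) of each member in SSC, pBCSP and BCSP, with 1 point per library, WT in black and Mettl3cko in red, and a bar at the mean of 2. Thbs4 falls from 27.9 and 31.9 to 13.9 and 10.7 CPM in SSC and rises from 29.6 and 34.4 to 79.5 and 93.8 CPM in BCSP, while no other member was called, although Thbs2 in BCSP and Comp and Thbs3 in pBCSP show no overlap of WT and Mettl3cko.

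Partners of the thrombospondins were read by the same limits. Receptors gave 3 of 15 higher and 1 lower in SSC, 0 of 15 in pBCSP, and 2 higher and 1 lower in BCSP. In SSC the 4 were Cd36 (log2 fold change 5.52), Cd47 (-0.67), Sdc1 (0.56) and Calr (0.54), with adjusted p of 0.145 to 0.289. The value of Cd36 starts near the floor, at 0.137 and 0.139 CPM in WT SSC, and its Mettl3cko SSC libraries stood apart, at 2.80 and 10.2 CPM. Beside Cd36, which endothelial cells also make, the endothelial markers summed to 1.92 and 0.801 CPM in WT SSC and 4.18 and 4.65 CPM in Mettl3cko SSC (1 of 2 tested called higher, Cdh5), and the erythroid markers to 1.23 and 2.02 against 30.6 and 10.7 CPM (2 of 3 tested called higher), and their part was not tested. Matrix partners gave 0 of 12 in SSC, 3 lower in pBCSP, namely Col2a1 (-0.70), Col9a1 (-0.62) and Col9a2 (-0.64), each at an adjusted p of 0.569, and 1 higher in BCSP, Col1a1 (1.02, adjusted p = 0.243). Proteases gave 2 of 9 lower in SSC, Adamts5 (-1.31, adjusted p = 0.238) and Mmp13 (-1.73, adjusted p = 0.209), 0 of the 8 tested in pBCSP, and 3 higher in BCSP, Adamts4 (1.32, adjusted p = 0.343), Mmp2 (0.58, adjusted p = 0.375) and Adamts1 (0.66, adjusted p = 0.38). Of the 10 tested genes of TGF-beta activation, 1 was higher and 2 lower in SSC, 1 was lower in pBCSP, and 4 were higher and 1 lower in BCSP. None of these passed with an adjusted p under 0.05, as no gene did in a single population by edgeR. In the mean genotype difference over the 3 populations, 2 of 15 receptors passed, Cd47 (-0.47, adjusted p = 0.0249) and Sdc1 (0.53, adjusted p = 0.0268). So did Tgfb2, a ligand of the TGF-beta list (0.57, adjusted p = 0.0493), and 0 of 12 matrix partners and 0 of 9 proteases. Among the markers, Prg4 (-1.92, adjusted p = 0.000431), Ihh (1.05, adjusted p = 0.00353), Hba-a1 (3.595, adjusted p = 0.00851), Hbb-bs (3.92, adjusted p = 0.0104) and Rgs5 (1.55, adjusted p = 0.0443) passed.

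The change of the ratio of IP to input with genotype gave 5 of 15 pairs at an unadjusted p under 0.05, and none once adjusted over all genes (adjusted p from 0.187 to 0.268 for the 5). By edgeR, 0 genes of 17224, 17490 and 17605 passed that adjustment in SSC, pBCSP and BCSP, with 2505, 2087 and 1814 at an unadjusted p under 0.05. By DESeq2, with adjustment, 11%, 6.5% and 4.71% of genes passed (1755, 983 and 717), and among them the same 5 pairs. Over all genes SSC had 11.3% lower and 3.26% higher, pBCSP 9.87% and 2.06%, and BCSP 7.82% and 2.49%. In SSC, 2 members were higher and 1 lower, in pBCSP 2 were higher, and in BCSP 0 of 5 passed by edgeR.

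Comp, below input in WT, had higher ratios in the Mettl3cko libraries of SSC, pBCSP and BCSP. In SSC and BCSP it was still below input in both Mettl3cko replicates. In SSC its log2 ratios were -1.69 and -1.76 in WT and -0.24 and -0.05 in Mettl3cko, a change of 1.60 ± 0.41 (adjusted p = 0.187). In pBCSP they were -1.55 and -1.47 and 0.08 and -0.45, a change of 1.24 ± 0.39 (adjusted p = 0.268), and in BCSP -1.08 and -1.03 and -0.60 and -0.53, a change of 0.52 ± 0.34 (adjusted p = 0.656). With IP and input paired as a replicate block, the BCSP change of Comp was 0.52 ± 0.17, which passed at an unadjusted p under 0.05 but not once adjusted (adjusted p = 0.737). Thbs3 moved the same way, from -1.685 and -1.39 to -0.53 and -0.33 in SSC (1.14 ± 0.32, adjusted p = 0.202), with changes of 0.595 (adjusted p = 0.512) in pBCSP and 0.51 (adjusted p = 0.652) in BCSP. For both genes every Mettl3cko replicate in SSC lay above every WT replicate, and so it was for Thbs1, which was not called. The share of all genes with such a separation was not counted, so it is a description. Thbs1 changed by 0.59, 0.53 and 0.20 in the 3 populations (adjusted p from 0.484 to 0.953) and Thbs2 by -0.34, -0.48 and -0.09 (adjusted p from 0.752 to 1). Further changes met the unadjusted limit once a library was left out, Thbs2 in SSC without Mettl3cko IP replicate 1 (-1.997), Thbs3 in pBCSP without Mettl3cko IP replicate 1 (0.84) and Thbs3 in BCSP without WT input replicate 1 (0.81).

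Thbs4 went apart. In SSC its IP libraries held 665 and 822 counts in WT but 28 and 10 in Mettl3cko, and the log2 ratio went from 0.31 and -0.08 to -3.27 and -4.78, a change of -3.82 ± 1.08 (adjusted p = 0.203). The exact 95% Poisson intervals of the latter counts are 18.6 to 40.5 and 4.8 to 18.4, for counting error only. In pBCSP the log2 ratio went up, from -0.25 and -0.51 to 0.825 and 0.65 (1.04 ± 0.31, adjusted p = 0.257), a change that missed the unadjusted limit with no filter (1.00), in a joint fit of the 3 populations (1.11) and without WT input replicate 2 (1.015), and in BCSP it went from 0.14 and 0.61 to 0.60 and -0.27 (-0.19 ± 0.49, adjusted p = 0.996). In a fit over the 24 libraries, added after the values were seen, the effect differed between the 3 populations for Thbs4 (adjusted p = 0.0308), against 0.285% of genes, and for 0 of the other 4 by edgeR (adjusted p from 0.811 to 1, and none at an unadjusted p under 0.05).

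The IP libraries labelled Mettl3cko held more genes with low counts than those of WT. Of genes with 200 to 800 input counts, the range in which Thbs4 lies in Mettl3cko SSC (402 and 339), 22.4% and 39.3% had fewer than 30 IP counts in the 2 Mettl3cko SSC replicates, against 2.51% and 6.36% in WT SSC. The shares were 18% and 26% against 1.39% and 2.45% in pBCSP, and 15.8% and 21.4% against 2.52% and 4.57% in BCSP. The median change of the log2 ratio over all genes tested was -0.16 (SSC), -0.26 (pBCSP) and -0.10 (BCSP). Within single replicates, the median log2 ratio instead lay higher in Mettl3cko than in WT for each of these populations. Mettl3cko medians were 0.156 and 0.316 (SSC), 0.12 and 0.134 (pBCSP), 0.143 and 0.103 (BCSP). WT medians were -0.023 and 0.045 (SSC), 0.002 and 0.008 (pBCSP), 0.084 and 0.068 (BCSP). Fewer genes entered them for Mettl3cko SSC (10606 and 9256) than for WT SSC (13694 and 12754). In Mettl3cko SSC, Thbs3 (13908 and 14641 input counts) and Comp (116527 and 91654) lie above the range of 200 to 800. The part of these low IP counts in the values of Thbs4, Thbs3 and Comp was not tested.

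**Figure D5:**
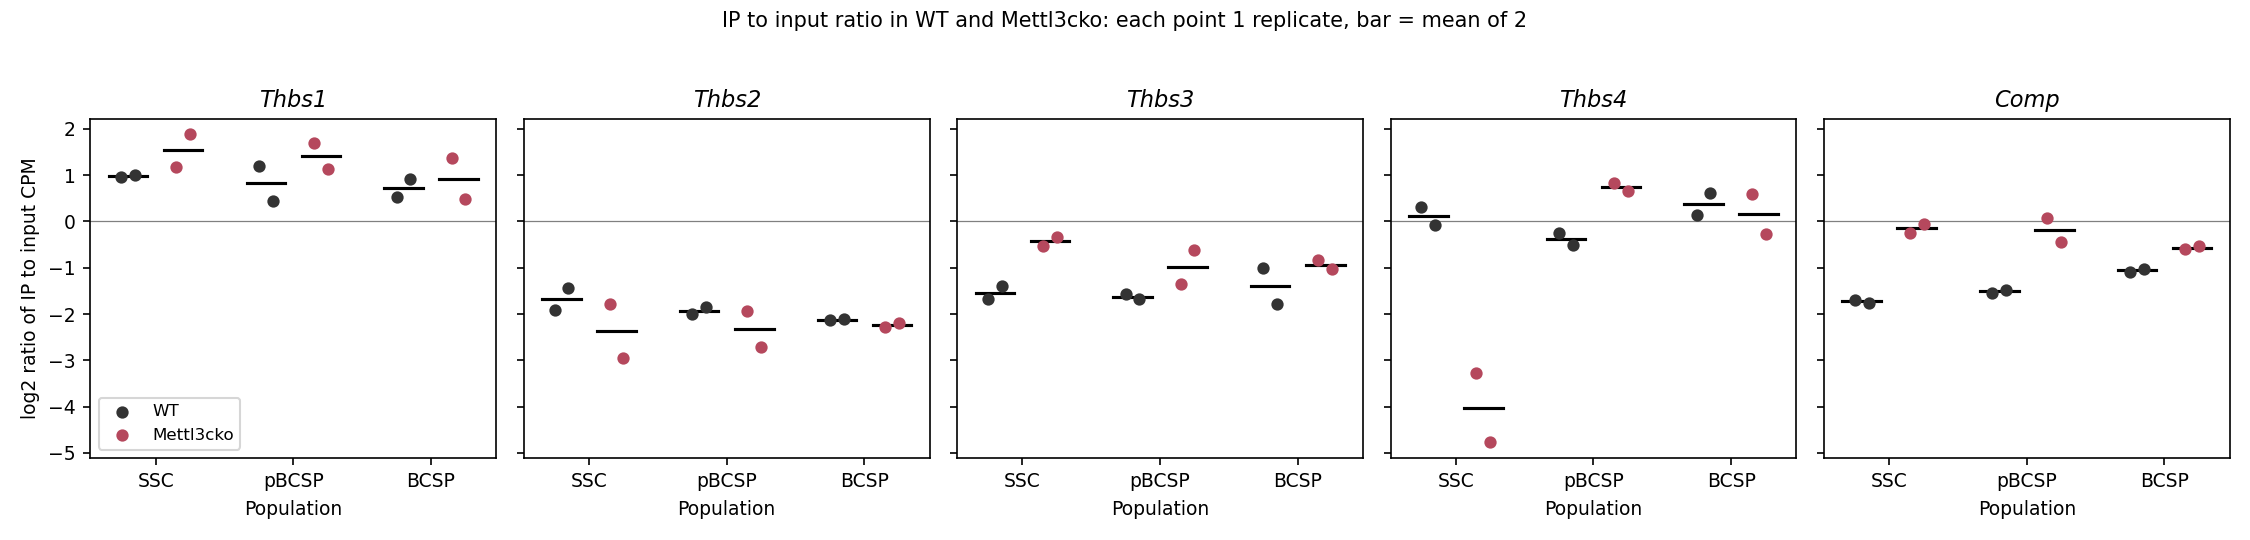
log2 ratio of IP to input CPM of each member in SSC, pBCSP and BCSP, with 1 point per replicate, WT in black and Mettl3cko in red, and a bar at the mean of 2. In SSC, Comp, Thbs3 and the uncalled Thbs1 lie higher in Mettl3cko than in WT. Thbs4 in Mettl3cko SSC holds the lowest points, -3.27 and -4.78, at IP counts of 28 and 10. The nearest other point is at -2.95 (Thbs2 in Mettl3cko SSC).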

How the data were processed

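IP and input RNA of each WT and Mettl3cko population, with 2 replicates each, was sequenced by the SLIM-seq authors. Per the labels and the study's methods, they trimmed reads with fastp 0.20.1, aligned them to GRCm38 with HISAT2 2.2.1 and deposited featureCounts 2.0.1 counts per gene. The strand setting and annotation are not given in the sources used here. Further deposited tables of the authors' own SSC comparisons, with fold changes and p-values, were not used. From the raw counts, 128 of 46959 entries that name no single gene were left out (at most 0.39% of a library), leaving 46831 genes.

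Counts were normalised by TMM and tested with edgeR 4.0.16 (quasi-likelihood test, filterByExpr, R 4.3.3) on all genes, with Benjamini-Hochberg adjustment over all genes tested. Standard errors were taken from the fold change and its F value. Adjusted p under 0.05 was used between populations, and the study's limits, at unadjusted p under 0.05, for IP against input and for genotype in single populations. Each gene list contributed at most 4 named genes, those with the smallest p; list genes beyond these were chosen after their values were seen. A result on a list gene is not reported here. Alternatives were DESeq2 1.42.0, other size factors, other filters, a replicate block and each library left out. The scripts were tested on simulated data. Depth was 16480027 to 44046651 counts per library.

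The study divided the sorted cells of a batch between IP and RNA-seq. That IP and input of the same number share a batch is an assumption of the replicate block. The deviations of such libraries from the group mean correlated at 0.0417 to 0.36. The numbers of WT and Mettl3cko do not pair the samples (correlations of -0.018, 0.0389 and -0.00578). The members and lists were chosen with earlier results of these data known.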

Additional observations from a re-analysis of the deposited data

Results flagged for a closer look

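Thbs4 was singled out because its Mettl3cko effect differed between SSC, pBCSP and BCSP. For mRNA, the test of the difference gave an adjusted p = 0.0941 (edgeR's quasi-likelihood test with Benjamini-Hochberg adjustment), which misses the threshold once adjusted. Both Mettl3cko libraries lay under WT in SSC and both above WT in BCSP, which with 2 libraries a group is a description. Its log2 fold changes were -1.29 (SSC), -0.415 (pBCSP) and 1.425 (BCSP). Between pairs of populations, the effect in BCSP exceeded that in SSC by 2.68 ± 0.31 (SE; adjusted p = 0.0287), that in BCSP exceeded that in pBCSP by 1.835 ± 0.30 (adjusted p = 0.698), and that in pBCSP exceeded that in SSC by 0.845 ± 0.30 (adjusted p = 1).

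For the ratio of IP to input, the test of the difference gave an adjusted p = 0.0308. The change in pBCSP exceeded that in SSC by 5.01 ± 0.865 on the log2 scale (adjusted p = 0.0172), and that in BCSP exceeded that in SSC by 3.70 ± 0.86 (adjusted p = 0.106). The Mettl3cko SSC IP libraries held 28 and 10 counts of Thbs4. The tests of pairs and the test of the ratio were chosen after the data were seen.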

How the results depend on the processing

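Each alternative changed one choice and kept the rest. The mRNA counts were the most even. With 4 of 5 members called across the 8 populations and 4 between the sides, every alternative and every omitted library gave 4, and the 65 pairs called came to 62 to 77 with a library left out. Over all alternatives the log2 difference between the sides ran from 1.425 to 1.61 for Comp, 1.18 to 1.49 for Thbs1, -2.67 to -2.49 for Thbs2 and -3.41 to -3.26 for Thbs4. Of 1290 recomputed single values of a member, 1256 kept their call and 0 called ones changed sign, while 53 uncalled ones did.

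Counts that moved by over 1.5 times were these. The 1 tagged pair became 0 with adjusted p and 0 with no filter, and 0 to 2 with a library left out. The 2 Mettl3cko mRNA pairs became 0 with adjusted p and 4 with no filter, and the 5 ratio pairs 0 with adjusted p. The difference of the genotype effect on mRNA, called for 0 members, was called for 1, Thbs4, with DESeq2, with at least 10 counts in every library, with no filter, and with the replicate block, and for 0 to 1 with a library left out. The ratio, called for 0 members, was called for 1, Thbs1, across populations and between the sides with the replicate block, and for 0 to 1 in each with a library left out. The libraries that moved a count are named beside the results. With DESeq2 and adjusted p, an alternative chosen after seeing the data, 2 mRNA pairs and 5 ratio pairs of Mettl3cko were called. The cause of these changes was not tested.

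With IP and input paired by number, the block changed no other call than those of Thbs1 (ratio across populations and between the sides) and Comp (ratio in Mettl3cko BCSP). WT and Mettl3cko numbers do not pair the samples, and with such a replicate block 2 mRNA pairs were called, as without it, and Thbs4 passed in the difference of the effect (adjusted p = 0.0429).

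With 2 libraries a group, the spread is known poorly, and a left-out library leaves 1 that is assumed to vary like the other groups. Depth limits the ratio of Thbs4 in Mettl3cko SSC, at 28 and 10 IP counts. Both IP and input are scaled within their libraries, so that a shift of m6A common to all genes cannot be seen.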
